A study of Mus musculus with 6 samples.

Results

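The nuclear genes for the subunits of the mitochondrial respiratory chain were followed in mouse corneas before and after an alkali burn, a chemical injury of the eye surface. Members were the rows of the deposited gene table whose symbol starts with Ndufa, Ndufb, Ndufc, Ndufs or Ndufv plus a digit, with Uqcr, with Cox4 to Cox8, or with Atp5, or is Sdha, Sdhb, Sdhc or Sdhd, leaving out pseudogene symbols. This gave 84 rows of 28539, of which 37 belong by name to complex I, 4 to complex II, 8 to complex III, 18 to complex IV and 17 to complex V. Atp5s and Atp5sl carry the name of complex V without being subunits of the mature enzyme. In turn, the rule by name leaves out Cyc1 of complex III, and Ndufab1, which has no digit after Ndufa. They are counted in other lists below, Ndufab1 with the assembly factors. RNA-seq of polyadenylated transcripts was made from whole corneas of female C57BL/6J mice aged 6 to 8 weeks, giving 6 samples in 3 groups of 2: uninjured controls (day 0), and burned corneas on day 5 and on day 15. All groups share strain, sex and age. The labels call the later group a stage of regression after the operation, and they do not say how many animals or corneas went into a sample.

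The respiratory chain passes electrons from NADH (complex I) and succinate (complex II) through complex III to oxygen at complex IV, and the proton gradient built on the way drives ATP synthesis at complex V. Each complex other than II combines subunits from the mitochondrial genome with nuclear ones, and several nuclear subunits exist as pairs, one widely expressed and one restricted to muscle, testis or other tissues. In the cornea, the pump cells of the inner surface are known for their many mitochondria.

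Levels are in FPKM, a unit that divides the fragments of a gene by its length and by the library's total, and the authors gave 1 pooled level and 1 interval per group. No spread between samples can therefore be shown, no test was possible, and every comparison is a description. Below, a locus is apart between 2 groups if the authors' intervals are separate, the log2 ratio of (FPKM + 1) has a size of 1 or more (2-fold), and the higher group reaches an FPKM of 1. The intervals of members with FPKM of at least 5 were wide, with a median half-width of 47.3% of the value on day 0, 47.0% on day 5 and 46.4% on day 15. Read depth is unknown. The tissue itself differed between groups: the summed FPKM of 8 corneal epithelial markers was 37075 at day 0, 1569 at day 5 and 2912 at day 15, not counting the keratin gene Krt12 at day 0, which lacked a usable value. Most of that day 0 sum came from Lypd2, Slurp1 and Aldh3a1, with 13645, 11780 and 9150. Of the 7 epithelial markers that could be compared with day 0, 6 were lower in value and 1 higher at both times. The higher one was Krt14, with 180, 500 and 760, while Pax6 had 128, 63.6 and 108, neither apart from day 0. The summed FPKM of 6 keratocyte markers was 4566, 1668 and 2502. Without Aldh1a1, on a row shared with another gene, it was 4379, 1655 and 2463. The gene Dcn, not apart, gave 3484, 1388 and 2104 of these sums. Of the 6 keratocyte markers, 4 were lower and apart at day 5 and 3 at day 15, beside 2.5% and 1.81% of all loci. Lum, at 237, 243 and 286, was not lower. The summed FPKM of 7 macrophage markers was 129, 625 and 997, leaving out Cd68, whose row is shared with other genes. The corneal endothelial transporter gene Slc4a11 was at 55.9, 3.10 and 1.04, lower and apart at both times, while the sum of 4 endothelial markers was 187, 227 and 197. The summed FPKM of 6 conjunctival and goblet markers was 769, 2185 and 7350. The keratin gene Krt4, not apart in any comparison, gave 757, 2070 and 6734 of these. The goblet mucin gene Muc5ac was at 0.010, 1.61 and 32.3, higher and apart at both times. The part of these cell types in the results below was not tested. In whole tissue, fewer cells of a type and less RNA per cell cannot be told apart.

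With FPKM as deposited, the summed level of the nuclear members differed little between the 3 groups, and the members' median depended on scaling. The FPKM of the median member was 113 on day 0, 93.5 on day 5 and 109 on day 15, and the summed FPKM of the 84 rows was 18328, 17458 and 19714. The members' median log2 ratio at day 5 against day 0 was -0.15 as deposited, -0.047 after scaling by the median ratio of loci and -0.44 after scaling to a common sum, which moved the median of all loci by -0.27. The mitochondrial genome, which encodes further subunits, is not among the 84 rows. Its 1 locus in the table had an FPKM of 193, 504 and 517, not apart. Of the members, 82 reached an FPKM of 1 in at least 1 group. The other 2, the testis-type genes Cox7b2 and Cox8c, were listed at 0 in every group. A mean FPKM of at least 50 was found for 67 members. The order of the members by level was kept, with Spearman's rho across the 82 genes of 0.95 for day 5 and day 0, 0.95 for day 15 and day 0, and 0.99 for day 15 and day 5. These are correlations across genes that share their libraries and their transcript lengths, given with no p.

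**Figure D1:**
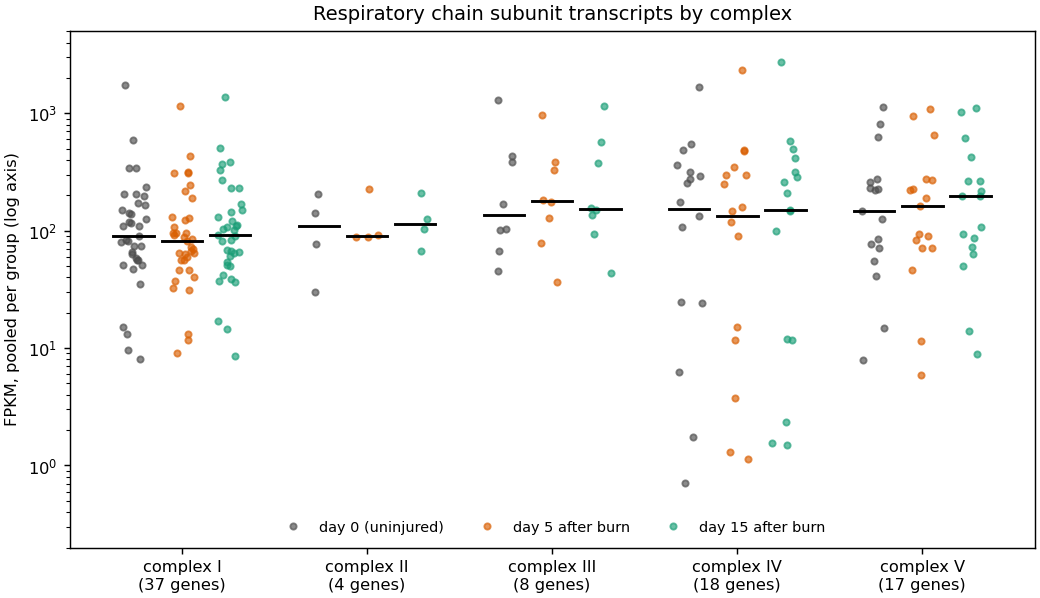
FPKM of every member (points, log axis) by complex at day 0, day 5 and day 15, with the median as a bar. The 2 genes listed at 0 are not drawn but enter the median. Medians lie between 81.4 and 196 in all complexes and groups.

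By complex, the medians differed in sign, and several depended on scaling or membership. At day 5 against day 0 the median log2 ratio was -0.14 for complex I, 0.16 for complex II, -0.19 for complex III, -0.21 for complex IV and -0.053 for complex V. Over all 82 measured members it was -0.15 at day 5, beside -0.088 over the 15576 loci with FPKM of at least 1 and -0.13 over the 7142 loci with FPKM of at least 10. At day 15 against day 0 the medians were 0.033, -0.077, -0.038, -0.041 and 0.14 for complexes I to V. The median over members was 0.026, beside -0.083 over 6993 loci with FPKM of at least 10. Over loci with FPKM of at least 50 the median was -0.15 at day 5 and -0.031 at day 15. Without the tissue-restricted isoforms, the complex IV median was -0.040 at day 5 and 0.095 at day 15, the second with the sign turned. Without rows that name more than 1 gene, that of complex V at day 5 was -0.20. After scaling to a common sum, complexes I to V had -0.44, -0.14, -0.49, -0.45 and -0.35 at day 5, the sign of complex II turned, and -0.083, -0.20, -0.16, -0.14 and 0.036 at day 15, the sign of complex I turned. Scaling by the median ratio turned the sign of complex V at day 5 (0.048) and of complexes III and IV at day 15 (0.023 and 0.020).

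One member of 82 was apart, Sdhc, higher at day 5 than at day 0 and again at day 15 than at day 0. Across all loci, 5.92% were apart at day 5 (3.42% higher, 2.5% lower) and 4.72% at day 15 (2.91% higher, 1.81% lower). No member was apart between day 15 and day 5, where 0.783% of loci were (0.395% higher, 0.388% lower). At FPKM of at least 10, smaller differences were also a lower share of the members than of the loci. On the log2 scale of (FPKM + 1), past 1.5-fold in either direction were 17 of 77 members at day 5 and 15 of 77 at day 15, against 41% and 34.7% of such loci. Past 2-fold were 3 of 77 in each comparison, against 22.1% and 17.3%. As plain ratios of FPKM, Cox7a1 and Ndufb3 also reached 2-fold at day 5, and Cox7a1 and Cox8b at day 15, all lower. For 71 of 77 members the day 5 FPKM lay inside the day 0 interval, as it did for 75.2% of loci, and for 68 of 77 the day 15 FPKM did, as for 79.5%. Values higher than at day 0 were found for 25 of 77 members at day 5, beside 42.1% of loci, and for 41 of 77 at day 15, beside 43.8%. Among members of at least 50 FPKM these counts were 24 of 69, beside 41.6%, and 38 of 70, beside 48%. The splits depend on scaling: over all 82 members, 26 were higher and 56 lower at day 5 with FPKM as deposited, 37 and 45 after scaling by the median ratio of loci, and 13 and 69 after scaling to a common sum. At day 15 against day 0 the splits were 43 and 39, 46 and 36, and 34 and 48 in that order.

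**Figure D2:**
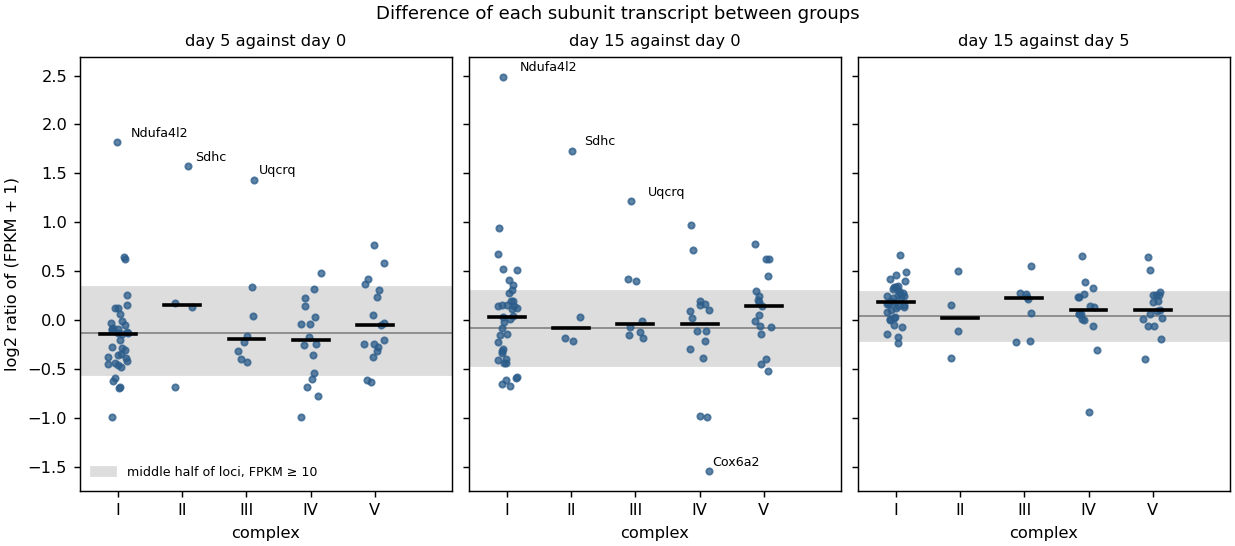
Log2 ratio of (FPKM + 1) of each measured member by complex, in a panel per comparison, with the complex median as a black bar. The grey band and line give the interquartile range and median of loci with FPKM of at least 10. Names mark the members with a log2 ratio of 1 or more in size. These are Ndufa4l2, Sdhc and Uqcrq, above the band in both comparisons with day 0, and Cox6a2, below it at day 15. Other members also lie outside the band.

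Between the injured groups, more members had their higher value at day 15 than at day 5. Of 77 members with FPKM of at least 10 these were 63, against 54.2% of loci at that level, and of 66 members with at least 50 they were 55, against 61.4%. The differences were small: on the same log2 scale, 2 of 77 members passed 1.5-fold, against 16.5% of loci, and none passed 2-fold, against 5.51%. For 75 of 77 the day 15 FPKM lay inside the day 5 interval, as for 90% of loci. The median log2 ratio was 0.16 over the members, 0.039 over loci of at least 10 FPKM and 0.11 over loci of at least 50. By complex it was 0.19, 0.023, 0.23, 0.10 and 0.10 for I to V, and complex II turned to -0.016 after scaling by the median ratio. Over all 82 members, 66 were higher and 16 lower with FPKM as deposited, 58 and 24 after scaling by the median ratio, and 74 and 8 after scaling to a common sum. Day 5 was the lowest of the 3 groups for 46 of the 77 members (59.7%), as it was for 40.2% of 7298 loci, and day 15 the highest for 36 (46.8%), as for 24.9%. These counts of lowest and highest groups use FPKM as deposited, and scaling was not varied for them.

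Complex II, succinate dehydrogenase, joins the citric acid cycle to the chain, and its 4 subunits are all nuclear. Sdhc, which encodes a membrane anchor that helps to bind ubiquinone and heme, lies on the minus strand of chromosome 1 (171129157 to 171150603, mm10). It had an FPKM of 30.2 (authors' interval 20.98 to 39.5) at day 0, 92.1 (53.7 to 131) at day 5 and 103 (60.9 to 144) at day 15. Both injured groups were higher without overlap, by 3.05-fold at day 5 and 3.40-fold at day 15, with log2 ratios of 1.58 and 1.73. The day 0 interval of Sdhc was the narrowest of all members with FPKM of at least 5, at 30.6% of the value. At the median width of the members its upper bound would have been 44.5, which still lies below the lower bounds of 53.7 and 60.9. Its partners had no such separation. Sdhd, the other membrane anchor and the most abundant member of the complex, had 204 at day 0, 225 at day 5 and 208 at day 15. Sdha, the flavoprotein that oxidizes succinate, stood at 77.1, 87.6 and 66.7. Sdhb, the iron-sulfur subunit, stood at 142, 88.1 and 125. None of these 3 was apart in any comparison. Sdhc thus made up 6.66% of the summed FPKM of the 4 genes at day 0, 18.7% at day 5 and 20.4% at day 15.

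**Figure D3:**
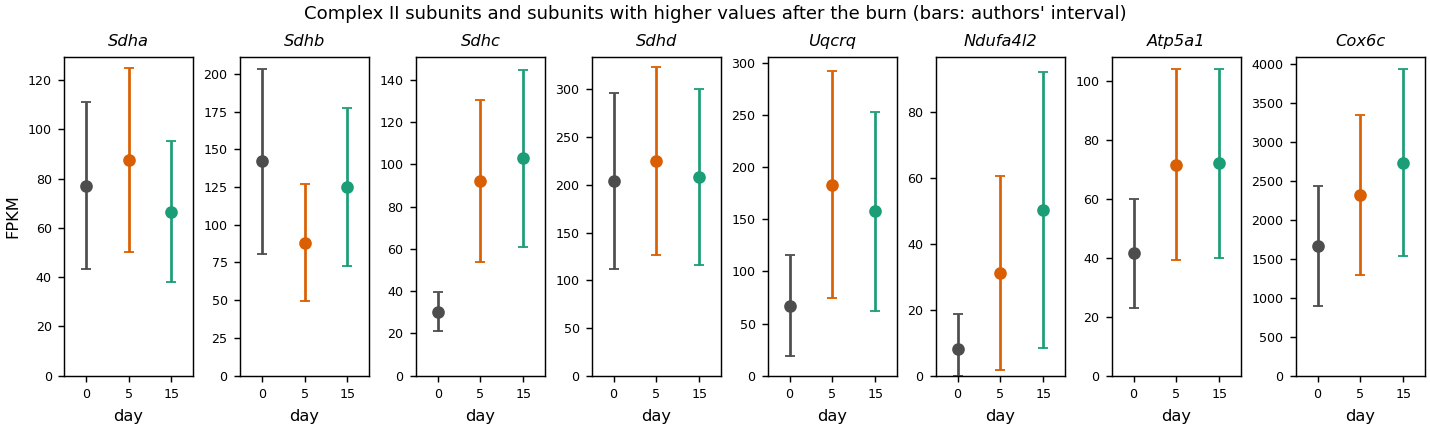
FPKM (points) with the authors' interval (bars) at day 0, day 5 and day 15 for the 4 complex II genes and for Uqcrq, Ndufa4l2, Atp5a1 and Cox6c, each on its own axis from 0. The intervals of Sdhc at day 5 and day 15 lie above that at day 0, while those of the other 7 genes overlap.

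Complex I, NADH dehydrogenase, is the largest complex of the chain. Its 7 nuclear core genes, which carry the flavin and the iron-sulfur clusters, had a median log2 ratio of -0.28 at day 5 and -0.14 at day 15 against day 0. The other 30 genes had -0.13 and 0.038. Scaling was not varied for these medians. The core gene Ndufs7 lies on a locus 87.6 times the annotated span, with intervals from 0 in every group. Over all 37, single log2 ratios ran from -0.99 to 1.82 at day 5 and from -0.67 to 2.49 at day 15. Among the core genes, Ndufv1, which binds NADH, had an FPKM of 83.5 at day 0, 64.1 at day 5 and 54.5 at day 15. Ndufs8, an iron-sulfur subunit, had 164, 123 and 109.7, on a row shared with Aldh3b1 that cannot be split. Both had their lowest value at day 15, inside the day 0 interval. Ndufs4, an accessory subunit needed for assembly and a cause of Leigh syndrome when mutated in people, had 109.7 (54.3 to 165) at day 0, 67.8 (36.4 to 99.1) at day 5 and 68.7 (41.1 to 96.3) at day 15. Ndufb3, an accessory subunit of the membrane arm, had 171, 85.4 and 109, with intervals that reach almost to 0 and a locus 7.67 times the annotated gene span.

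The membrane-arm subunits Ndufc1 and Ndufc2 had higher values after the burn, not apart. Ndufc1 was at 199 at day 0, 307 at day 5 and 383 at day 15, and Ndufc2 at 204, 319 and 328. These are ratios of 1.55 and 1.57 at day 5 and of 1.92 and 1.61 at day 15, with overlapping intervals throughout. Ndufa1, a small membrane subunit on chromosome X, stood at 15.2, 11.7 and 17.0. Ndufa4 was the most abundant member named for complex I, at 1729 (780 to 2678) at day 0, 1148 (649 to 1646) at day 5 and 1369 (850.3 to 1887) at day 15. The Ndufa4 protein is now known as a subunit of complex IV. Its locus in the table spans 25.4 times the annotated gene.

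Ndufa4l2 encodes a close relative of Ndufa4 that is known as a target of hypoxia-inducible factor and, in other tissues, as a gene of pericytes. It lies on chromosome 10 (127514939 to 127522444, mm10), on a locus 3.43 times the annotated span. Its FPKM was 8.13 (0 to 18.6) at day 0, 31.2 (1.86 to 60.5) at day 5 and 50.2 (8.44 to 91.97) at day 15. The values are 3.84-fold and 6.17-fold those of day 0, the highest ratios of any member, yet the intervals overlap and Ndufa4l2 was not apart. Its share of the summed FPKM of Ndufa4 and Ndufa4l2 was 0.468% on day 0, 2.65% on day 5 and 3.54% on day 15. The summed FPKM of 6 smooth muscle and pericyte markers was 48.5 at day 0, 187 at day 5 and 129 at day 15. In value, 4 of the 6 were higher and 2 lower at day 5 than at day 0. At day 15, 5 were higher and 1 lower. Among the 6, the smooth muscle actin gene Acta2 was higher and apart at both times. The pericyte marker Rgs5, at 11.5, 55.5 and 34.2, was not. The pericyte proteoglycan gene Cspg4 stayed near an FPKM of 1 (0.88, 1.42 and 1.15). Whether pericytes account for any of the Ndufa4l2 values was not tested.

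Complex III, the cytochrome bc complex, had 1 large difference in value. Uqcrq, a small subunit next to cytochrome b, lies on chromosome 11 (53428948 to 53430903, mm10). Its FPKM was 67.0 (18.7 to 115) at day 0, 183 (74.3 to 292) at day 5 and 157 (62.0 to 253) at day 15, or 2.73-fold and 2.35-fold that of day 0. The intervals overlapped, so it was not apart. Of the core genes, Uqcrc1 had 170.0, 175 and 150.3. Uqcrc2 had 102, 129 and 137, and the Rieske iron-sulfur gene Uqcrfs1 had 45.7, 36.7 and 43.4. All 3 stayed near their day 0 value. Uqcrb, which helps to bind ubiquinone, was the most abundant, at 1288 at day 0, 959.6 at day 5 and 1159 at day 15. Uqcrh, the hinge subunit for cytochrome c1, had 103, 77.9 and 94.5. Uqcr10 was at 433, 388 and 570.4, on a locus 15.1 times the annotated span. Other than for Uqcrq, day 5 and day 15 values of these genes lay within 1.5-fold of day 0.

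Complex IV, cytochrome c oxidase, shows the isoform pairs. Cox6c, a small membrane subunit, had the highest mean FPKM of the chain, at 1662 (888 to 2435) at day 0, 2319 (1297 to 3341) at day 5 and 2731 (1529 to 3932) at day 15. The ratios of Cox6c to day 0 were 1.40 and 1.64, within overlapping intervals. The widely expressed isoforms differed little. Cox4i1, which carries a regulatory site of the enzyme, was at 490.03, 476 and 498. Cox6a1 was at 294, 301 and 314, and Cox6b1, which helps to join the enzyme into a dimer, at 255, 298 and 286. Cox8a was at 545, 485 and 585. These values all lay within 1.5-fold of day 0. Cox7b stood at 133, 147 and 148, and Cox7c at 361, 352 and 414. Cox7a2 and Cox7a2l had their lowest values at day 5. Cox7a2 was at 175, 119.8 and 151, and Cox7a2l, known for joining complexes III and IV into supercomplexes, at 275, 160.3 and 211. Cox7a2l at day 5 was 0.584 of its day 0 value, still inside overlapping intervals (90.2 to 230.4 against 153 to 397).

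The muscle-type isoforms Cox6a2, Cox7a1 and Cox8b were present at low levels and had lower values in the injured corneas. Cox8b lies on chromosome 7 (140898942 to 140900446, mm10) and had an FPKM of 24.7 (14.5 to 34.9) at day 0, 15.1 (0 to 31.1) at day 5 and 12.0 (0 to 25.6) at day 15. Cox7a1 had 24.1 (6.55 to 41.7), 11.6 (0.956 to 22.3) and 11.6 (1.07 to 22.2). Cox6a2 had 6.23 (2.87 to 9.59), 3.77 (0 to 8.61) and 1.49 (0 to 3.88), on a locus 34.0 times the annotated span. None was apart. At day 15 their values were 48.7%, 48.3% and 23.9% of day 0 for Cox8b, Cox7a1 and Cox6a2, whereas Cox8a, Cox7a2 and Cox6a1 were at 107%, 86.4% and 107%. As a share of its isoform family, Cox8b was 4.34% of the summed FPKM on day 0, 3.02% on day 5 and 2.02% on day 15. Cox6a2 was 2.07%, 1.24% and 0.471% of the Cox6a pair.

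Skeletal muscle markers also had lower values in the injured corneas. The summed FPKM of 14 such markers was 812 at day 0, 493 at day 5 and 118 at day 15, or 60.7% and 14.5% of day 0. Single markers lay between 35.1% and 101% of day 0 at day 5 and between 3.11% and 20.97% at day 15. At day 15, 6 of the 14 were lower and apart, beside 1.81% of all loci. The fast-muscle actinin gene Actn3 was near 0 throughout, at 0.66, 0.35 and 0.02. Without Tnni2, on a row shared with Syt8, the sum of the other 13 was 65.5% and 14.2% of day 0. At day 5 Cox6a2 was at 60.5%, Cox8b at 61.0% and Cox7a1 at 48.2% of day 0, and at day 15 all 3 muscle-type isoforms stood above every marker. How far muscle in the dissected tissue sets these isoform values was not tested.

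**Figure D4:**
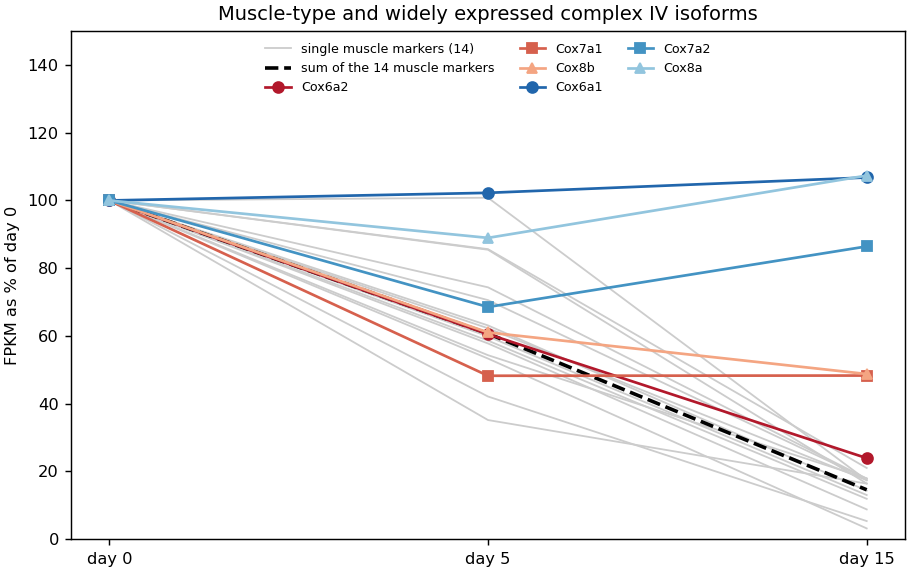
FPKM as a percentage of day 0 at day 0, day 5 and day 15 for muscle-type isoforms (red), widely expressed isoforms (blue), 14 skeletal muscle markers (grey) and their sum (dashed). At day 15 the muscle-type isoforms lie between 23.9% and 48.7%, the marker sum at 14.5%, and the widely expressed isoforms between 86.4% and 107%.

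The remaining restricted isoforms were close to the floor. Cox4i2, the isoform known from lung and for its response to low oxygen, was at 0.711 at day 0, 1.13 at day 5 and 2.35 (0 to 15.7) at day 15. Cox6b2, known from testis, was at 1.76, 1.31 and 1.55. Neither can be told apart from 0 by the authors' intervals.

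The promoters of an isoform pair, and of a second widely expressed gene, show how the sequences before these genes differ. They are given from 250 bases before the RefSeq start of the transcript to 50 after it (GRCm38.p6, read along the gene's strand), and capitals mark motif matches. Cox6a1 is on the minus strand at chr5:115348909-115349208 and holds 2 matches to the NRF1 motif, which is GCGCA and GCGC with 1 free base between them. Its 1 match to CCGGAAG is left in lower case.
Cox6a1: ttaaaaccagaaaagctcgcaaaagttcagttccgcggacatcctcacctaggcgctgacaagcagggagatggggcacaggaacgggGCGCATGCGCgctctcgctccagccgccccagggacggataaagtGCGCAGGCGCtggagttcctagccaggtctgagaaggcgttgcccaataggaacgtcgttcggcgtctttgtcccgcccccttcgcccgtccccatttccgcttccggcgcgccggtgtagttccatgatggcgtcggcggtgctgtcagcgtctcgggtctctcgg
Cox8a is on the minus strand at chr19:7217567-7217866 and holds 2 matches to CCGGAAG, a core that GABP and other ETS factors recognize, here read on the opposite strand as CTTCCGG.
Cox8a: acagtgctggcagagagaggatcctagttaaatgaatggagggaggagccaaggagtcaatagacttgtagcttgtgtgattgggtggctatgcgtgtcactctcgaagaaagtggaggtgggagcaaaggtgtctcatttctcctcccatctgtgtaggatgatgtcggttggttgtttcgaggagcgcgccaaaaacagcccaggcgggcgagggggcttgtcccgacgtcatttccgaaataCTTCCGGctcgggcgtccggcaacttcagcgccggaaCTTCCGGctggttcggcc
Cox8b, the muscle-type partner, is on the minus strand at chr7:140900397-140900696 and holds 2 matches to CAGCTG, a form of the E-box that myogenic factors recognize.
Cox8b: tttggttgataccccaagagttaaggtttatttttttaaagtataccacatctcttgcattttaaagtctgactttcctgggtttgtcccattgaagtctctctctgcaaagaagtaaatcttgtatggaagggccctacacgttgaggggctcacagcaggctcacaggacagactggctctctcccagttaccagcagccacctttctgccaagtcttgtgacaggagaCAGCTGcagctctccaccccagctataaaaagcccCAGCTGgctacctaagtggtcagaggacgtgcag
Neither the NRF1 motif nor CCGGAAG was found in the Cox8b window, nor CAGCTG in the Cox8a window, and none of the marked matches overlaps another motif searched.

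Motifs were searched on both strands in 300-base windows of RefSeq promoters. Genes on chromosome 18, among them Atp5a1 and Ndufa2, were left out of the search. Windows were available for 69 of the 84 members, all of which were matched by name. Atp5a1 and Ndufa2 are the only members on chromosome 18, so leaving it out does not account for all the missing windows. Sdhc, the member that was apart, and Uqcrq also had no window, so their promoters were not searched. The NRF1 motif was found in 17 of 69 (24.6%), beside 5.19% of the 27025 genes searched. CCGGAAG was found in 16 (23.2%, beside 9.93%) and AAGATGGC, the letters of a YY1 site, in 11 (15.9%, beside 3.19%). CAGCTG was found in 6 (8.70%, beside 18.3%): Atp5b, Cox8b, Ndufa8, Ndufb10, Ndufs5 and Ndufv2. Of these 6, only Cox8b is a muscle-type isoform. NRF1, GABP and YY1 are known regulators of nuclear respiratory genes. A match is a run of letters and was not tested as a binding site. None of the genes for these factors was apart. Nrf1 was at 10.7 at day 0, 10.1 at day 5 and 9.79 at day 15, Gabpa at 19.0, 19.7 and 22.7, and Yy1 at 10.5, 11.3 and 10.9.

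Complex V, the ATP synthase, had higher and lower members, none apart, with log2 ratios from -0.63 to 0.77 at day 5 and from -0.51 to 0.78 at day 15. Atp5h, a stalk subunit, had the highest mean over the groups, at 1123 at day 0, 949 at day 5 and 1019 at day 15. Atp5o, another stalk subunit, was at 816, 1098 and 1117, above Atp5h in both injured groups. In the catalytic head, Atp5b, whose protein carries the catalytic sites, was at 625, 648 and 622 on a row shared with the microRNA Mir677. Atp5a1, the other large head subunit, was at 41.5 (22.9 to 60.0), 71.5 (39.1 to 103.9) and 72.0 (40.0 to 104.0). Its ratios to day 0 of 1.72 and 1.74 were the highest of the complex. Atp5c1, the central shaft, was at 259, 225 and 196. Atp5d had 71.4, 46.6 and 49.7, with intervals from 0 and a locus 93.5 times the annotated span. Atp5e was at 276, 271 and 425, on a row shared with Slmo2. The peripheral stalk gene Atp5f1 had 127, 164 and 196, and Atp5j had 84.2, 71.3 and 87.5.

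The proton-carrying ring of complex V is made from one mature protein that 3 genes encode, and their mix differed between groups in value. Atp5g3 gave 52.4% of their summed FPKM on day 0, 60.9% on day 5 and 60.8% on day 15. Atp5g2 gave 34.5%, 20.7% and 24.6%, and Atp5g1 13.1%, 18.4% and 14.6%. The summed FPKM of the 3 genes was 426, 455 and 436. In single values, Atp5g2 had 147 (72.8 to 221), 94.3 (44.5 to 144) and 107 (51.1 to 164), Atp5g1 had 55.6, 83.8 and 63.5, and Atp5g3 had 223, 277 and 265. All intervals overlapped.

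Lists of other genes of mitochondrial energy use give the setting, each counted in full and with FPKM as deposited. Scaling was not varied for these lists or for the glycolysis genes below. A common sum moved the median of all loci by -0.27 at day 5 and -0.11 at day 15 against day 0. None of 35 assembly factors, 77 mitochondrial ribosome genes, 6 carriers, 15 biogenesis regulators or 18 citric acid cycle genes was apart in any comparison. Nor was any of 4 genes of uncoupling and ATP synthase inhibition, or Cyc1 or Cycs. Of all loci, 5.92% were apart at day 5, 4.72% at day 15 and 0.783% between the injured groups. For the shorter lists a count of 0 or 1 apart therefore says little. Median log2 ratios at day 5 and at day 15 against day 0 were -0.16 and -0.17 for assembly factors, -0.15 and -0.13 for the mitochondrial ribosome, -0.18 and -0.16 for carriers, and 0.078 and 0.0080 for biogenesis regulators. Citric acid cycle genes had 0.28 and 0.31, with 13 and 11 of 18 higher in value. Among loci with FPKM of at least 10, 42.1% and 43.8% were higher. Uncoupling and inhibition had -0.37 and -0.078, and Cyc1 and Cycs together 0.54 and 0.23. Ppargc1a, a coactivator of mitochondrial biogenesis, stayed below an FPKM of 1, at 0.63, 0.43 and 0.64. From the same list, Ppargc1b was at 1.18, 2.73 and 1.76 and Pprc1 at 3.42, 6.52 and 3.46, neither apart. At day 5, 8 of the 14 regulators that could be compared were higher in value and 6 lower. Among 8 genes of mitophagy and mitochondrial stress, with medians of -0.070 and -0.29, only Bnip3, a mitophagy receptor induced by low oxygen, was apart. It was at 26.9, 102 and 94.2, higher at both times.

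Glycolysis genes had higher medians, 0.65 at day 5 and 0.51 at day 15. Of 18 loci, 14 had the higher value at each time, beside 42.1% and 43.8% of loci with FPKM of at least 10. Hk2, which phosphorylates glucose, Ldhb, a lactate dehydrogenase chain, and Pfkp, a phosphofructokinase, were higher and apart at day 5, and Pfkp again at day 15, when the muscle enolase gene Eno3 was lower and apart. The difference between the glycolysis and respiratory chain medians was not tested. Of 14 reference genes none was apart at day 5 and B2m was at day 15, with medians of 0.35 and 0.31. Sdha is one of them.

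**Figure D5:**
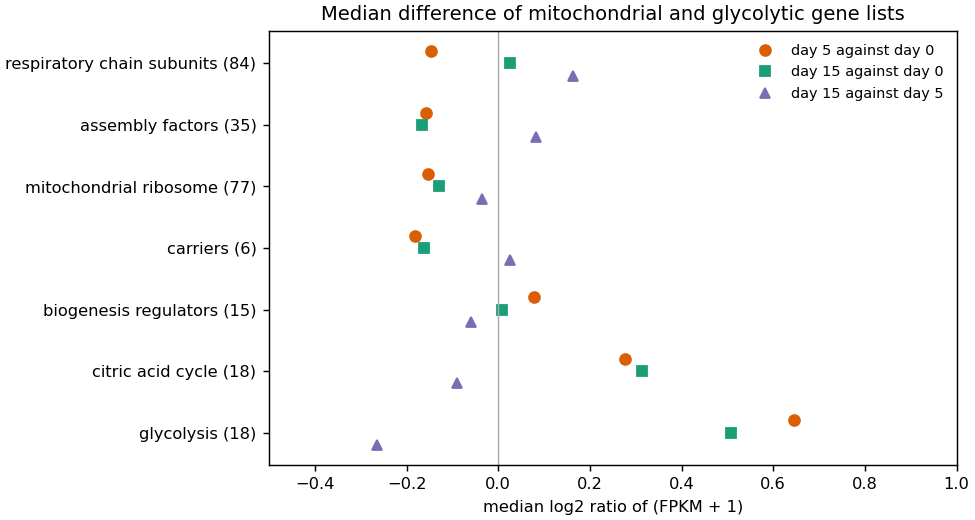
Median log2 ratio of (FPKM + 1), with FPKM as deposited, of the respiratory chain subunits and of 6 other lists (number of loci in brackets). Each comparison is over loci with FPKM of at least 1. The subunits lie at -0.15, 0.026 and 0.16, while the citric acid cycle and glycolysis lie to the right of 0 in both comparisons with day 0.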

How the data were processed

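RNA-seq of 6 whole-cornea samples (2 per group) was used as the authors' deposited gene table, with FPKM and interval bounds once per group and 0 columns of single samples. Per the submitters' processing notes, the tools were Cufflinks 2.2.1, Bowtie2 2.2.6, TopHat2 2.1.0 and Cuffdiff (no version named), on mm10. Their settings and the strandedness are not given in the sources used here. Pooled values leave no replicate error, so no test was run. The calls of loci as apart use a pseudocount of 1, which understates differences of low genes, and a status of OK in both groups, which all members had. Overlap of loci with genes was taken from GENCODE M21 (GRCm38), and coordinates are 1-based. Genes that overlap another on either strand are uncertain. Of the members, 4 rows name more than 1 gene and 14 lie on a locus over 3 times the annotated span. Members, lists and motifs were chosen with earlier results of these data known.

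The genes named were every member apart, the most abundant member of each complex, the 2 highest and 2 lowest log2 ratios per complex and comparison among members with FPKM of at least 10, and, whatever their values, the isoform families and the 4 Sdh genes. Uqcrfs1, Atp5b, Atp5o and genes outside the chain were added after their values were seen. Alternatives varied the pseudocount, the FPKM minimum, the fold, the scaling, the interval rule and the membership. Tables were computed with pandas 2.3.3, numpy 2.4.6 and scipy 1.17.1 in Python 3.11.15, and drawn with matplotlib 3.10.9.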

Additional observations from a re-analysis of the deposited data

How the results depend on the processing

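The count of 1 member higher and apart in each comparison with day 0, and of none lower, held under every alternative run but one. Without the interval rule, 3 members were higher at day 5, 3 were higher at day 15 and 1 was lower at day 15. Scaling each group to a common sum moved the median of all loci by -0.27 at day 5 and -0.11 at day 15 against day 0 and by 0.16 at day 15 against day 5, and the members' medians became -0.44, -0.093 and 0.34. Scaling by the median ratio of loci gave -0.047 at day 5. Relative to loci with FPKM of at least 10, the members' median lay at -0.022, -0.033 and 0.0064 at day 5 (as deposited, by median ratio, by common sum), at 0.11, 0.10 and 0.12 at day 15, and at 0.12, 0.13 and 0.12 for day 15 against day 5, in the same order. Sdhc was apart in both comparisons with day 0 under each scaling. The value differences of Sdha and Sdhd at day 5 changed sign with the common sum (-0.12 and -0.16). Membership limited to a mean FPKM of at least 50, or to loci no more than 3 times the annotated span, was chosen after seeing the data and kept all counts of members apart. No paired analysis was possible because the table has no columns of single samples, and for the same reason leaving out a sample was not run. Depth is unknown, and the authors' intervals, near 47.3% of the value at day 0, limit what differences can be seen.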

Other observations

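The mitochondrial genome encodes further subunits of complexes I, III, IV and V. It appears in the table as 1 locus without a symbol, from base 24 to base 16221 of the mitochondrial chromosome. It was looked at after its value was seen. Its FPKM was 193 (55.5 to 330.1) at day 0, 504 (93.7 to 914) at day 5 and 517 (34.7 to 1000.1) at day 15. The values after the burn are 2.61-fold and 2.68-fold that of day 0, and the intervals overlap, so it was not apart. The locus spans 16198 bases and many genes, so no single subunit can be read from it. It does not enter the counts or medians of the nuclear members, whose summed FPKM at day 5 and day 15 was 17458 and 19714, against 18328 at day 0.

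Atpif1, which encodes the protein that inhibits ATP synthase when it runs in reverse, was at 415 at day 0, 441 at day 5 and 655 at day 15. It was not apart. Cycs, the mobile electron carrier between complexes III and IV, was at 42.4, 83.6 and 61.8, and Cyc1, its donor in complex III, at 39.6, 43.0 and 37.4.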
